A study of Mus musculus with 38 samples.

Results

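HGS2 is a mouse high-grade serous ovarian cancer (HGSOC) line that was established in female C57/Bl6 mice and that forms tumors in the omentum, the fatty apron of the peritoneal cavity, after injection into syngeneic mice. RNA sequencing (RNA-seq) of untreated HGS2 omental tumors was set against RNA-seq of the same line in monoculture, to describe which transcripts came with growth in the omentum and with the host cells of the tumor. The members were chosen by their labels and were 9 of the 38 libraries of the series, namely 7 control tumors and 2 cell line cultures. The tumors grew in female C57BL/6J mice that were injected intraperitoneally at an age of 8 to 9 weeks. The mice received vehicle once a week for 3 doses, with the first dose 49 days after the injection, and tumors were taken 1 day (TP1, n = 3) or 7 days (TP2, n = 4) after the last dose. The cultures (n = 2) grew in medium with 4% serum, insulin, transferrin and selenium, 100 ng/ml hydrocortisone and 20 ng/ml epidermal growth factor (EGF). Neither tumors nor cultures received chemotherapy. The alleles that drive the line are not given in the sources used here, the model is 1 line, and the labels do not say whether the 2 culture libraries came from separate cultures, so p-values measure the spread between these libraries, which may in part be technical.

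The omentum holds adipocytes, a mesothelial lining, blood and lymph vessels and clusters of macrophages, B cells and plasma cells. HGSOC often spreads there, and its tumors contain malignant cells within a collagen-rich matrix that fibroblasts and malignant cells both secrete. A culture holds the malignant cells alone, on plastic, with ample nutrients, serum lipoproteins and added hormones. In bulk RNA, more cells of a type and more RNA per cell cannot be told apart, and neither can transcripts of host cells and of malignant cells that share a gene.

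Tumors and cultures were sequenced in separate runs and deposited in separate tables, so the sequencing run is mixed with the comparison of tumor and culture, and the run and the growth condition cannot be told apart. The values are the authors' expected counts per gene. The total per library was between 24519694 and 39153745 (median 27759743) in the tumors, and 31633121 and 37718471 in the cultures. At least 1 count was found for 22373 to 23098 genes in the tumors and for 19288 and 19340 genes in the cultures. Levels are given below as CPM (read counts scaled to a common library size) on library sizes scaled with the trimmed mean of M values (TMM), where 3 counts in a culture library correspond to at most 0.0962 CPM.

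Several libraries stood apart within their group. TP1 replicate 3 and TP2 replicate 2 held pancreas RNA, with a summed level of 14 acinar genes of 82987 and 167821 CPM against 9.66 to 2028 CPM in the other 5 tumors. TP1 replicates 1 and 3 were low in mesothelial genes, with a sum of 119 and 270 CPM against 1936 to 2870 CPM in the other 5 tumors. TP2 replicate 3 was high in B cell genes, at 586 CPM against 18.6 to 123 CPM. The cultures also differed from each other. Culture replicate 2 had the higher level of 22 mitosis genes (3568 against 1139 CPM) and 24 DNA replication genes (2429 against 1063 CPM), and the lower level of 24 interferon-stimulated genes (463 against 2053 CPM) and 15 fibroblast genes (14715 against 31265 CPM). Of all genes tested, 14.8% differed by more than 1 on the log2 scale between the 2 cultures. Counts of calls are therefore also given without culture replicate 1 and without culture replicate 2. In those fits the remaining culture was assumed to vary like the tumors.

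Checked against its label, the culture expressed markers of HGSOC and of the mesothelium. Wt1, a transcription factor of both, was at 274 and 258 CPM, Msln, which encodes mesothelin, at 624 and 324 CPM, Muc16, which encodes CA125, at 540 and 146 CPM, and Krt7 at 185 and 79.8 CPM. Pax8, the lineage factor of Mullerian epithelium, was at 0.0641 and 0 CPM and Epcam, an adhesion molecule of epithelial cells, at 0 and 0.156 CPM. Vim, the filament protein of mesenchymal cells, was at 1284 and 2077 CPM. The cultured line thus carried Wt1, Msln, Muc16 and keratins beside abundant mesenchymal transcripts, and Pax8 and Epcam were at or near 0. Other epithelial genes were missing as well, since 8 of 18 tested had at most 3 counts in each culture. In the tumors Wt1 was at 21.1 to 232 CPM (median 173), Msln at 4.65 to 167 CPM (median 106) and Muc16 at 3.65 to 346 CPM (median 230), with the lowest value of each in TP1 replicate 1.

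Tumors and cultures differed widely, mostly through genes that were higher in the tumors. Of 16081 genes tested with edgeR's quasi-likelihood test, 4857 (30.2%) were called, which means an adjusted p (Benjamini-Hochberg) under 0.05 and a log2 fold change beyond 1 in either direction. Of these, 3697 (23%) were higher and 1160 (7.21%) lower in the tumors. The counts of list members given below are to be read beside these shares. The median log2 fold change over all genes tested was 0.06. All 7 tumors were above both cultures for 4717 genes (29.3%) and below both for 3488 genes (21.7%). limma-voom called 3431 genes, of which 2249 were higher and 1182 lower. Without culture replicate 2, 2720 genes were called.

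Part of the difference lay in noncoding and structural transcripts. Of 878 genes of the annotation class TEC, which holds gene models without experimental proof, 735 were higher in the tumors, with a summed level of 2330 to 3467 CPM in the tumors and of 525 to 798 CPM in the cultures. Of 100 sense intronic transcripts, 81 were higher. Rmrp, the RNA of a ribonuclease that processes mitochondrial and ribosomal RNA, was chosen after its values were seen. It was at 1.97 to 4.43 CPM (median 2.05) in the tumors and at 518 and 661 CPM in the cultures (log2 fold change −7.87, SE 0.31, adjusted p = 3.77e-05). In 60577, the other model of the series, Rmrp was at 1.75 to 3.87 CPM in 6 control tumors and at 1208 and 886 CPM in 2 cultures, and the 2 models did not differ beyond error (difference 0.57, SE 0.44, adjusted p = 0.501). Malat1, a nuclear noncoding RNA also chosen after its values were seen, was at 9615 to 20154 CPM (median 14122) against 6406 and 3108 CPM (log2 fold change 1.51, SE 0.40, adjusted p = 0.0173). The mitochondrial mt-Co3 and mt-Nd3 were listed at 0 in most tumors. What the sequencing run adds to these and to the other differences was not tested.

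**Figure D1:**
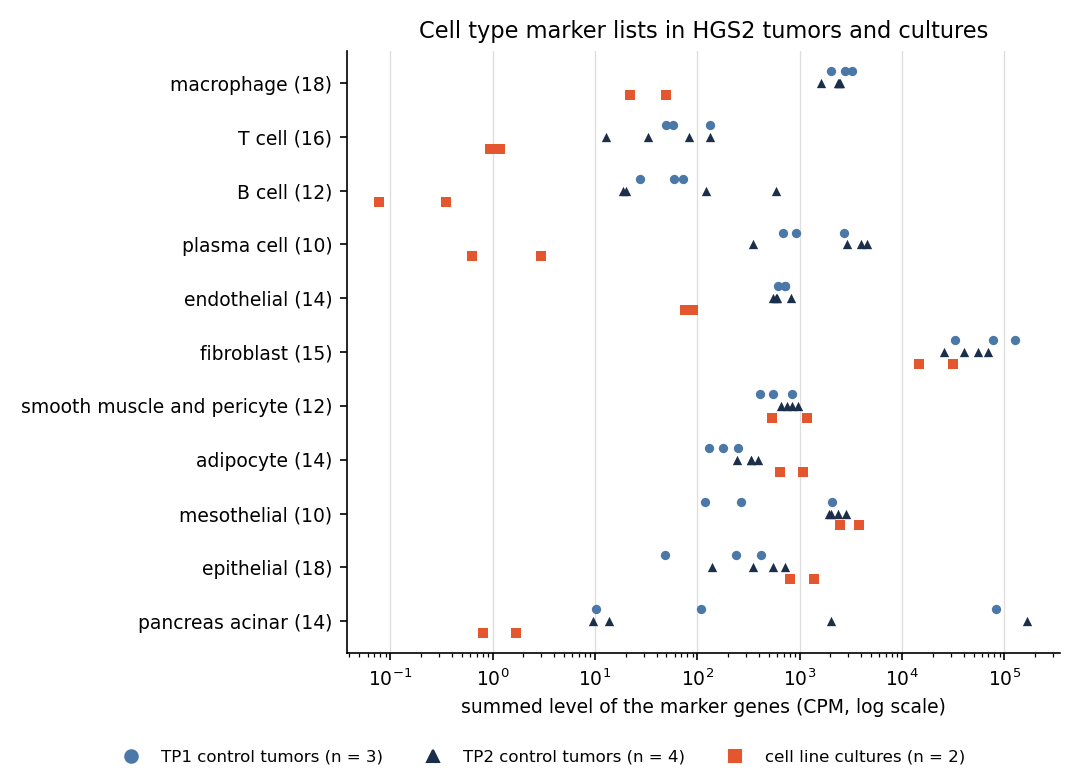
Summed level of 11 cell type marker lists in each HGS2 library, in CPM on a log axis, with 1 point per library (7 control tumors, 2 cultures). Macrophage genes sum to 1606 to 3261 CPM in the tumors and to 49.3 and 22.2 CPM in the cultures, whereas the fibroblast sums of tumors and cultures overlap.

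Macrophage transcripts were abundant in the tumors and nearly absent from culture. Lyz2, the lysozyme of myeloid cells (ENSMUSG00000069516, GRCm38 chr10:117277331-117282321, minus strand), was at 443 to 1070 CPM (median 736) in the tumors and had 0 counts in both cultures. This is at least 7652-fold higher against the limit of 3 counts per culture library (adjusted p = 8.13e-05), and every tumor was above both cultures. C1qa, C1qb and C1qc, the 3 chains of the complement starter C1q that macrophages secrete, had tumor medians of 386, 433 and 311 CPM, again with 0 counts in both cultures, or at least 4012-fold, 4498-fold and 3235-fold higher. Csf1r, the receptor through which macrophages receive survival signals, was at 299 to 582 CPM (median 472) against 0.289 and 0.0781 CPM (log2 fold change 11.28, SE 0.72, adjusted p = 7.26e-05).

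Of 18 macrophage genes listed, 17 were tested and 16 were higher in the tumors, with a median log2 fold change of 11.08, or 7.23 with genes absent from culture at their bound, beside 0.06 over all genes tested. The count was 15 without culture replicate 1 and 13 without culture replicate 2. Adgre1, which encodes F4/80, was at 108 to 210 CPM (median 161) and at least 1678-fold higher. Mrc1, the mannose receptor of resident and alternatively activated macrophages, was at 112 to 319 CPM (median 242), with 0 and 3 counts in the cultures (ratio 5614, 95% counting interval 1921 to 27222). Trem2, a lipid-sensing receptor, was at 35.1 to 64.7 CPM (median 50.7) against 3.62 and 0.469 CPM (log2 fold change 4.59, SE 0.76, adjusted p = 0.0026). The tumors lay above the cultures for each of these genes. Mertk, a receptor for dying cells, was at 21.5 to 51.5 CPM (median 26.7) in the tumors and at 26.4 and 9.55 CPM in the cultures, where the groups overlapped and the test was not passed (adjusted p = 0.174).

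Transcripts of antigen presentation by major histocompatibility complex (MHC) class II followed the same split. Cd74, the chaperone of class II, was at 293 to 2119 CPM (median 1438) against 0.545 and 0.208 CPM (log2 fold change 11.75, SE 1.29, adjusted p = 0.000502). H2-Ab1, a class II chain, was at 111 to 861 CPM (median 579), with 1 and 0 counts in the cultures (ratio 40321, 95% counting interval 7237 to 1592599). Ciita, the master regulator of class II transcription, was at 14.4 to 140 CPM (median 52.7), also with 1 and 0 counts (ratio 3671, interval 659 to 144998). The lowest summed class II level, 677 CPM, was in TP2 replicate 2, one of the tumors with pancreas RNA, and the median over the 7 tumors was 3431 CPM. All 10 class II genes tested were higher in the tumors, 7 without culture replicate 1, 6 without culture replicate 2, and 3 with limma-voom.

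Lymphocyte transcripts were present in the tumors at lower levels and varied far more between mice. Cd3e, a chain of the T cell receptor complex, was at 0.641 to 13.2 CPM (median 4.59) and had no count in either culture (at least 47.7-fold higher, adjusted p = 0.00705). Cd4 was at 1.85 to 14.8 CPM (median 10.1), Cd8a at 0.356 to 23.5 CPM (median 4.36) and Foxp3, the factor of regulatory T cells, at 0.392 to 4.95 CPM (median 2.74), each with 0 counts in culture and at least 105-fold, 45.3-fold and 28.5-fold higher. All tumors were above the cultures, but the highest and lowest tumor differed widely for each. All 16 T cell genes tested were called by edgeR, 9 without culture replicate 2, and 0 by limma-voom. Cd8a was among those lost without culture replicate 2 (adjusted p = 0.0696).

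Plasma cell transcripts were the most abundant of the lymphoid lineage, with a summed level of 348 to 4573 CPM (median 2733) in the tumors and of 2.98 and 0.625 CPM in the cultures. Igkc, the constant region of the kappa light chain, was at 82.8 to 1081 CPM (median 662) and Jchain, which joins secreted antibodies, at 20.9 to 351 CPM (median 175), both with 0 counts in culture (at least 6878-fold and 1824-fold higher, adjusted p = 0.00151 and 0.00292). Of 9 plasma cell genes tested, 8 were higher, 4 without culture replicate 1 and 3 without culture replicate 2, and limma-voom called 1. B cell genes were highest in 1 tumor. Cd22, an inhibitory receptor of B cells, was at 2.64 to 77 CPM (median 15), with the highest value in TP2 replicate 3, and was called (at least 156-fold higher, adjusted p = 0.00774), but not without culture replicate 2 (adjusted p = 0.0528). Of 12 B cell genes tested, 6 were higher, 10 without TP2 replicate 3 or without TP2 replicate 2, 2 without culture replicate 1 and 0 without culture replicate 2, and limma-voom called 0.

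Vessel transcripts were higher in the tumors, with 2 exceptions among the best known markers. Pecam1, which encodes CD31 of endothelial junctions, was at 35.5 to 83 CPM (median 42.8) against 0.0962 and 0.13 CPM (log2 fold change 8.80, SE 0.54, adjusted p = 7.1e-05). Vwf, the clotting factor that endothelium stores, was at 37.3 to 84.7 CPM (median 56.6) against 0.0962 and 0.104 CPM (log2 fold change 9.10, SE 0.49, adjusted p = 5.29e-05). Cdh5, the cadherin of endothelium, was at 20.3 to 126 CPM (median 41.9) with 0 counts in culture (at least 436-fold higher). No tumor came near the cultures for these genes. Kdr, the main receptor for vascular endothelial growth factor (VEGF), was instead at 39.1 to 150 CPM (median 94.5) in the tumors and at 49.7 and 37.5 CPM in the cultures, so that the line itself expressed it and the groups overlapped (adjusted p = 0.119). Esam was at 19 to 60.4 CPM (median 28.8) against 19.9 and 24.7 CPM (adjusted p = 0.418). Of 14 endothelial genes tested, 12 were higher (median log2 fold change 5.17, or 4.94 with the bounds), 12 without culture replicate 1 and 11 without culture replicate 2.

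The pericyte genes Rgs5 and Abcc9 were also higher, whereas the contractile gene Acta2 was shared with the line. Rgs5, a marker of pericytes, was at 29.4 to 111 CPM (median 61.8) against 0.0321 and 0.13 CPM (log2 fold change 9.52, SE 1.04, adjusted p = 0.000486), and Abcc9 at 5.54 to 18.9 CPM (median 13.4) with 0 counts in culture (at least 139-fold higher). Acta2, the smooth muscle actin that also marks activated fibroblasts, was at 43.7 to 413 CPM (median 227) in the tumors and at 460 and 384 CPM in the cultures (log2 fold change −1.11, adjusted p = 0.159), with overlap. Of 12 genes of this list tested, 7 were higher and 0 lower, and the count was 7 and 6 without either culture.

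Adipocyte transcripts were scarce in the tumors even though the omentum is a fat depot. Fabp4, the fatty acid binding protein of adipocytes, was at 5.65 to 12.5 CPM (median 11.5) against 0.417 and 0.13 CPM (log2 fold change 5.24, SE 0.61, adjusted p = 0.000651). Adipoq, the adipocyte hormone adiponectin, was at 0.0449 to 12.9 CPM (median 2.03) against 0.0641 and 0 CPM and was not called (adjusted p = 0.056). Lpl, the lipase that releases fatty acids from lipoproteins, ran the other way, at 54.7 to 235 CPM (median 138) in the tumors and at 1025 and 607 CPM in the cultures (log2 fold change −2.63, SE 0.34, adjusted p = 0.000957). Of 13 adipocyte genes tested, 6 were higher and 1, Lpl, was lower. Without either culture 2 were higher, and leaving out a single tumor gave 3 to 8.

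The interstitial collagens were abundant in tumors and cultures alike. Col1a1, the major collagen I chain, was at 9820 to 62619 CPM (median 21412) in the tumors and at 12754 and 6999 CPM in the cultures (log2 fold change 1.36, SE 0.69, adjusted p = 0.139), and the lowest tumors, TP1 replicate 1 and TP2 replicate 3 with 12385 and 9820 CPM, lay between the cultures. Per kilobase of exon, Col1a1 was at 1496 to 9541 CPM in the tumors and at 1943 and 1066 CPM in the cultures, and Col3a1 at 834 to 3087 CPM against 635 and 345 CPM. Col3a1, the collagen of loose stroma, was called in CPM (8186 to 30299, median 15641, against 6237 and 3390, log2 fold change 1.80, SE 0.59, adjusted p = 0.0382), but the call was lost without either culture (adjusted p = 0.0696 and 0.231), without TP1 replicate 2 or 3 and without TP2 replicate 1 or 4.

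**Figure D2:**
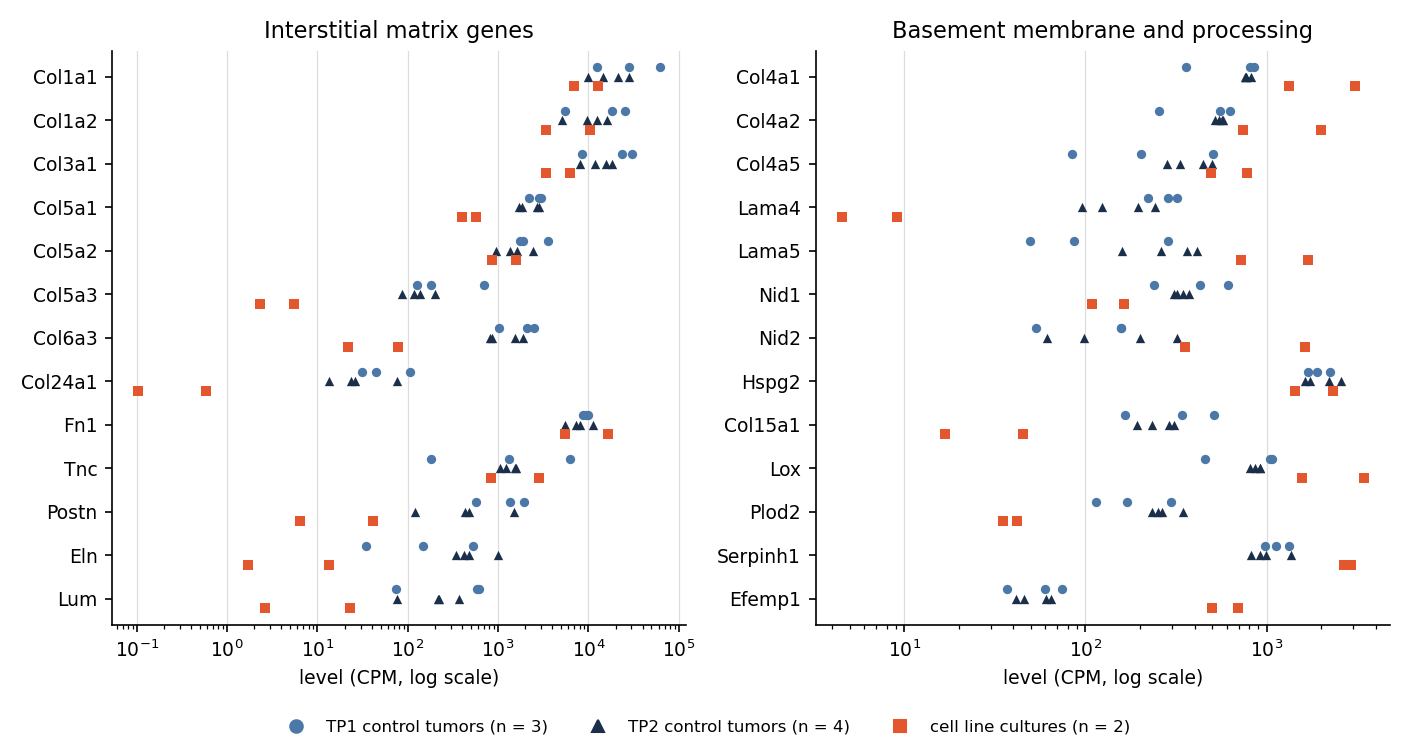
Level of 26 matrix genes in each HGS2 library, in CPM on a log axis, with interstitial matrix on the left and basement membrane and collagen processing on the right. Col1a1 and Fn1 overlap between tumors and cultures, Col6a3 is higher and Efemp1 lower in all 7 tumors.

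Some minor collagens that are built into or around collagen I fibrils differed more, and others overlapped. Col6a3, a chain of the beaded collagen VI network (ENSMUSG00000048126, GRCm38 chr1:90765923-90843971, minus strand), was at 820 to 2479 CPM (median 1552) against 77.3 and 21.6 CPM (log2 fold change 4.97, SE 0.78, adjusted p = 0.00204). Col5a1, which sets the diameter of collagen I fibrils, was at 1711 to 2982 CPM (median 2685) against 576 and 403 CPM (log2 fold change 2.33, SE 0.35, adjusted p = 0.00177). Col5a3 was at 87.2 to 694 CPM (median 138) against 5.52 and 2.34 CPM (log2 fold change 5.76), and Col24a1 at 13.4 to 105 CPM (median 30.8) against 0.577 and 0.104 CPM (log2 fold change 7.10, SE 1.20, adjusted p = 0.00283). The groups were apart for each of these genes. Col5a2 and Col11a1 overlapped instead. Per kilobase of exon, Col5a2 was at 98.7 to 377 CPM in the tumors and at 166 and 89 CPM in the cultures. Col11a1 was at 4.82 to 66.1 CPM against 8.15 and 8.41 CPM. Of 11 fibrillar collagens tested, 5 were higher and 0 lower (median log2 fold change 1.83), and 4 were higher without either culture.

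Beyond collagen, several fibroblast genes were higher in the tumors and others overlapped. Dpt, the matrix protein dermatopontin, was at 92.9 to 346 CPM (median 237) against 1.99 and 1.38 CPM (log2 fold change 7.0, SE 0.82, adjusted p = 0.00066), and Pdgfrb, the receptor for platelet-derived growth factor (PDGF) on stromal cells, at 132 to 407 CPM (median 222) against 26.1 and 15.2 CPM (log2 fold change 3.60, SE 0.49, adjusted p = 0.0012). Fap, the protease of activated fibroblasts, was at 6.11 to 33.9 CPM (median 17.1) against 0.994 and 0.26 CPM (log2 fold change 4.87, SE 0.76, adjusted p = 0.00209). Tumors and cultures were apart for all 3 genes. Pdgfra, the other PDGF receptor, was at 88.6 to 358 CPM (median 157) against 202 and 88.4 CPM (adjusted p = 0.565), and the proteoglycan Dcn at 341 to 1279 CPM (median 863) against 833 and 293 CPM (adjusted p = 0.443). Of 15 fibroblast genes, 11 were higher (median log2 fold change 4.57), 8 without culture replicate 1, 5 without culture replicate 2 and 8 with limma-voom.

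Glycoproteins of the matrix split into a group whose levels overlapped between tumors and cultures and a group that was far lower in the cultures. Fn1, fibronectin, was at 5490 to 11322 CPM (median 8791) in the tumors and at 16489 and 5533 CPM in the cultures (log2 fold change −0.34, adjusted p = 0.534), and Tnc, tenascin C, at 183 to 6259 CPM (median 1337) against 2841 and 833 CPM (adjusted p = 0.986). Tgfbi, a target of transforming growth factor beta (TGF-beta), was at 110 to 711 CPM (median 272) against 7.09 and 2.11 CPM (log2 fold change 6.15, SE 1.07, adjusted p = 0.0032), and Thbs2 at 86.3 to 1588 CPM (median 417) against 21.2 and 2.26 CPM (log2 fold change 5.42, SE 1.21, adjusted p = 0.00884). Postn, periostin, was at 119 to 1936 CPM (median 566) against 41.1 and 6.48 CPM and Eln, elastin, at 34.5 to 995 CPM (median 425) against 13.4 and 1.69 CPM (log2 fold change 5.24 and 5.58). Every tumor was above the cultures for the last 4 genes, but Postn and Eln were not called without culture replicate 2 (adjusted p = 0.0934 and 0.0883).

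In the opposite direction, Efemp1, the elastic fiber protein fibulin 3 (ENSMUSG00000020467, GRCm38 chr11:28853204-28926743, plus strand), was at 37.1 to 74.4 CPM (median 59.6) in the tumors and at 497 and 696 CPM in the cultures (log2 fold change −3.44, SE 0.26, adjusted p = 0.00012). Prg4, the lubricant of serosal and joint surfaces, was at 4.71 to 31.1 CPM (median 11.3) against 101 and 96.5 CPM (log2 fold change −2.81, SE 0.57, adjusted p = 0.00577). Both were lower in all 7 tumors. Of 24 matricellular and proteoglycan genes tested, 12 were higher and 4 lower, 8 and 3 without culture replicate 1, and 4 and 5 without culture replicate 2.

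Basement membrane genes changed in both directions, so that the list as a whole had a median log2 fold change of −0.00. Lama4, the laminin chain of vessel walls, was at 96.1 to 321 CPM (median 222) against 9.14 and 4.53 CPM (log2 fold change 4.96, SE 0.54, adjusted p = 0.000472), and Col15a1, also of vessel basement membranes, at 166 to 510 CPM (median 289) against 45.3 and 16.9 CPM (log2 fold change 3.24, SE 0.57, adjusted p = 0.00335). The tumors were above both cultures for each. Col4a1 and Col4a2, the chains of the main collagen IV network, had tumor medians of 773 and 554 CPM against 3054 and 1330 CPM and against 1998 and 740 CPM (log2 fold change −1.60 and −1.41), and Nid2, a linker of laminin and collagen IV, was at 53.3 to 321 CPM (median 157) against 1626 and 352 CPM (log2 fold change −2.78, SE 0.66, adjusted p = 0.0116). Culture replicate 1 was the higher culture in each case. Without it, Col4a1, Col4a2, Nid2 and the laminin Lama5 were at −0.88, −0.53, −1.29 and −1.81 and were not called (adjusted p = 0.134, 0.349, 0.232 and 0.1). Of 21 genes tested, 5 were higher and 5 lower, beside 23% and 7.21% over all genes, and 4 higher and 0 lower without culture replicate 1.

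Enzymes that crosslink and fold collagen did not move together. Lox, the lysyl oxidase that crosslinks collagen and elastin, was at 455 to 1068 CPM (median 917) in the tumors and at 3423 and 1555 CPM in the cultures (log2 fold change −1.52, SE 0.36, adjusted p = 0.0114), and at −0.85 without culture replicate 1 (adjusted p = 0.152). Serpinh1, the collagen chaperone HSP47, was at 819 to 1352 CPM (median 988) against 2674 and 2920 CPM (log2 fold change −1.38, SE 0.24, adjusted p = 0.00326). Plod2, which hydroxylates the lysines used for stable crosslinks, was at 115 to 347 CPM (median 252) against 42 and 35.3 CPM (log2 fold change 2.58, SE 0.39, adjusted p = 0.00176). All tumors were below the cultures for Lox and Serpinh1 and above them for Plod2. Of 15 genes tested, 2 were higher and 2 lower (median log2 fold change 0.18).

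Among matrix proteases and their inhibitors, more genes were higher than lower, and 11 were not called. Mmp2, the gelatinase of stromal cells, was at 139 to 562 CPM (median 321) against 36.2 and 14.3 CPM (log2 fold change 3.87, SE 0.73, adjusted p = 0.00435), and Adamts12 at 60.2 to 172 CPM (median 97.6) against 2.21 and 0.547 CPM (log2 fold change 6.16, SE 0.70, adjusted p = 0.000615). Ctsk, the collagen-degrading cathepsin K, was at 45 to 907 CPM (median 154) and Mmp9 at 7.59 to 1104 CPM (median 91.6), both highest in TP2 replicate 3. Their calls were lost without culture replicate 2 (adjusted p = 0.0614 for Ctsk and 0.0957 for Mmp9), and that of Mmp9 also without culture replicate 1 (adjusted p = 0.0555). Of 22 protease and inhibitor genes tested, 9 were higher and 2 lower, and 3 higher and 1 lower without culture replicate 2.

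Integrins, the receptors that bind this matrix, were more often higher than lower, beside 23% higher and 7.21% lower over all genes tested. Itga3 was the only one called lower. Itga6, the laminin-binding alpha 6 chain, was at 86.1 to 209 CPM (median 117) against 4.81 and 7.34 CPM (log2 fold change 4.49, SE 0.54, adjusted p = 0.000716), and Itga9, a receptor for tenascin, at 35.3 to 76.9 CPM (median 58.7) against 0.449 and 0 CPM (log2 fold change 8.09, SE 1.00, adjusted p = 0.000793). Itga3, the other laminin receptor chain (ENSMUSG00000001507, GRCm38 chr11:95044474-95076801, minus strand), was at 36.7 to 111 CPM (median 49) against 553 and 446 CPM (log2 fold change −3.23, SE 0.29, adjusted p = 0.000235). The groups did not overlap for these 3 genes. Itgb1, the beta 1 chain with which all 3 pair, was at 429 to 798 CPM (median 653) against 719 and 594 CPM (log2 fold change −0.05, SE 0.26, adjusted p = 0.894). Of 18 integrins tested, 7 were higher and 1 lower, 8 and 1 without culture replicate 1, and 3 and 1 without culture replicate 2.

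**Figure D3:**
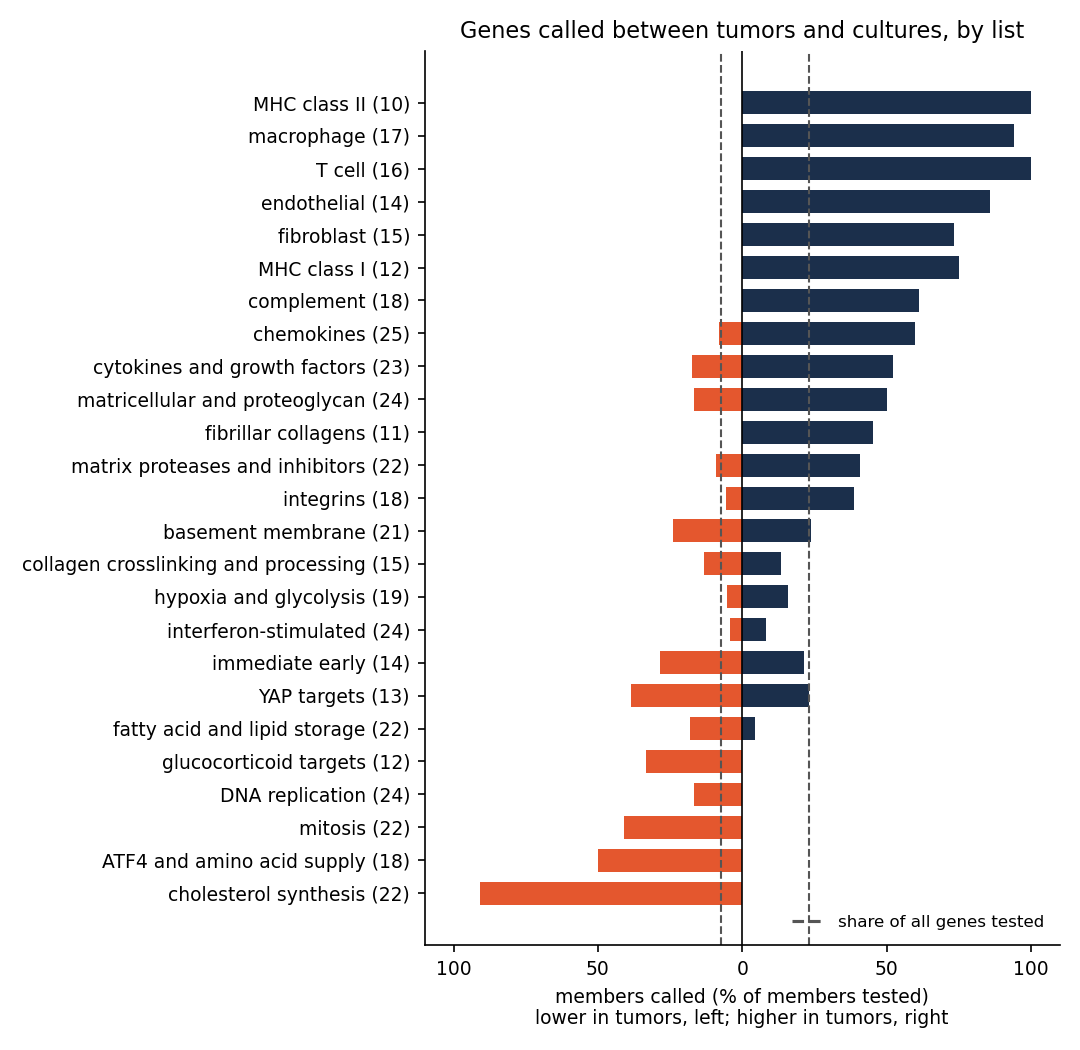
Percent of the tested members of 25 gene lists called lower (left) or higher (right) in the 7 HGS2 control tumors than in the 2 cultures, with dashed lines at the percent over all genes tested (7.21 lower, 23 higher). MHC class II and T cell genes are all higher, and 20 of 22 cholesterol synthesis genes are lower.

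Transcripts for antigen presentation by MHC class I, which all cells can make, were also higher in the tumors. H2-K1 was at 436 to 1251 CPM (median 961) against 184 and 66.7 CPM (log2 fold change 2.82, SE 0.59, adjusted p = 0.00698) and H2-D1 at 427 to 1302 CPM (median 994) against 172 and 86.1 CPM (log2 fold change 2.84, SE 0.53, adjusted p = 0.00415). Nlrc5, the regulator of class I genes, was at 15.3 to 127 CPM (median 63.1) against 4.71 and 0.364 CPM (log2 fold change 4.70, SE 1.15, adjusted p = 0.0126). All tumors exceeded both cultures for these genes. Of 12 class I genes tested, 9 were higher, also 9 without culture replicate 1, and 1, H2-D1, without culture replicate 2, which was the culture with the lower class I level. H2-K1 and Nlrc5 were then at adjusted p = 0.0589 and 0.053.

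Interferon-stimulated genes did not move with the class I genes. Cxcl9, a chemokine that interferon gamma induces, was at 1.78 to 135 CPM (median 21.3) against 0.128 and 0.0521 CPM (log2 fold change 8.64, SE 1.85, adjusted p = 0.00754). Isg15, an antiviral modifier that type I interferon induces, was at 5.24 to 40.7 CPM (median 20.8) against 180 and 23.9 CPM (log2 fold change −2.23, SE 0.69, adjusted p = 0.0315), and at −0.15 without culture replicate 1 (adjusted p = 0.895). Of 24 interferon-stimulated genes tested, 2 were higher and 1 was lower (median log2 fold change −0.29), 3 and 0 without culture replicate 1, and 0 and 3 without culture replicate 2.

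Complement components were higher or shared. C4b was at 220 to 456 CPM (median 281) against 19 and 4.22 CPM (log2 fold change 4.75, SE 0.66, adjusted p = 0.00131), Cfb, the protease of the alternative pathway, at 25.7 to 105 CPM (median 62.7) against 1.12 and 0.26 CPM (log2 fold change 6.44), and Serping1, the C1 inhibitor, at 77.1 to 267 CPM (median 134) against 2.08 and 0.182 CPM (log2 fold change 6.98). The receptor C5ar1 had 0 counts in culture and was at least 348-fold higher. C3, the central component, was at 674 to 2908 CPM (median 2032) in the tumors and at 1736 and 435 CPM in the cultures, which overlapped (adjusted p = 0.469). Of 18 complement genes tested, 11 were higher and 0 lower (median log2 fold change 3.64), with 12 and 9 higher without culture replicates 1 and 2.

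Chemokines, which recruit leukocytes, were mostly higher. Ccl8, which macrophages secrete, was at 8.83 to 96.5 CPM (median 36.4), with 0 and 1 counts in the cultures (ratio 2533, 95% counting interval 455 to 100057). Ccl6 and Ccl12 had 0 counts in culture and tumor medians of 19.5 and 15.1 CPM (at least 203-fold and 157-fold higher). Cxcl12, which retains leukocytes in stroma, was made on both sides, at 163 to 538 CPM (median 378) against 733 and 376 CPM (adjusted p = 0.223). Cxcl14 was at 14.6 to 30.1 CPM (median 21.2) against 224 and 85 CPM (log2 fold change −2.81, SE 0.35, adjusted p = 0.000815), and Cxcl15 at 0 to 0.404 CPM (median 0) against 36.7 and 34.8 CPM (fitted log2 fold change −9.66, SE 0.89, adjusted p = 0.000243). These last 2 were lower in every tumor. Of 25 chemokines tested, 15 were higher and 2 lower (median log2 fold change 3.24, or 2.89 with the bounds), 11 and 1 without culture replicate 1, and 8 and 1 without culture replicate 2.

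Cytokines and growth factors changed in kind. Pdgfb, the PDGF chain that draws pericytes to vessels (ENSMUSG00000000489, GRCm38 chr15:79995874-80014977, minus strand), was at 32 to 66.6 CPM (median 50.4) against 1.09 and 1.07 CPM (log2 fold change 5.45, SE 0.40, adjusted p = 0.000111), and Il33, an alarmin of stromal and mesothelial cells, at 141 to 755 CPM (median 379) against 12.7 and 18.5 CPM (log2 fold change 4.77, SE 0.80, adjusted p = 0.00272). Igf1 was at 36.3 to 97.6 CPM (median 64) against 7.28 and 2.97 CPM (log2 fold change 3.55, SE 0.57, adjusted p = 0.00221). Igf2, the related fetal growth factor, went the other way, at 0.766 to 26.7 CPM (median 3.16) against 828 and 169 CPM (log2 fold change −6.39, SE 0.94, adjusted p = 0.00163), as did Csf1, the ligand of Csf1r, at 106 to 303 CPM (median 221) against 679 and 464 CPM (log2 fold change −1.44, SE 0.35, adjusted p = 0.0122), and at −1.15 without culture replicate 1 (adjusted p = 0.0943). The groups did not overlap for these 5 genes. Of 23 genes tested, 12 were higher and 4 lower, 11 and 1 without culture replicate 1, and 8 and 4 without culture replicate 2.

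Of the mesothelial and ovarian markers carried by the line, a few were lower in the tumors, and the tumors differed widely. Bnc1, a transcription factor of the mesothelium, was at 2.94 to 57.5 CPM (median 40.3) against 356 and 290 CPM (log2 fold change −3.14, SE 0.63, adjusted p = 0.00582). Msln had a log2 fold change of −2.52 (SE 0.82, adjusted p = 0.0371), which did not pass the test without either culture (adjusted p = 0.194 and 0.089), without TP1 replicate 3 or without any 1 of the 4 TP2 tumors. Wt1 was at −1.07 (SE 0.56, adjusted p = 0.149), with all 7 tumors below both cultures, and Muc16 at −1.23 (adjusted p = 0.407). Of 10 mesothelial genes tested, 1 was higher and 3 were lower. Leaving out TP1 replicate 2 gave 10 called genes, and leaving out a TP2 tumor other than replicate 2 gave 1.

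Of the genes of epithelial to mesenchymal transition, Cdh2, N-cadherin, was at 64.8 to 199 CPM (median 114) against 438 and 549 CPM (log2 fold change −2.12, SE 0.35, adjusted p = 0.00271), and Zeb2, a repressor of epithelial genes that macrophages also express, at 190 to 307 CPM (median 281) against 71.4 and 34.4 CPM (log2 fold change 2.34, SE 0.34, adjusted p = 0.00148). Both differed in every tumor. Vim was at 860 to 2267 CPM (median 1614) in the tumors (log2 fold change −0.13, adjusted p = 0.797), and its sign turned to 0.01 with upper quartile scaling. Krt19 was at 2.77 to 218 CPM (median 103) against 418 and 924 CPM (log2 fold change −3.05, SE 0.88, adjusted p = 0.024), and was not called without culture replicate 2 (adjusted p = 0.183). Of 18 epithelial genes, 3 were higher and 1 was lower. Epcam was highest in TP1 replicate 3, at 20.3 CPM, while its median was 1.2 CPM. Per kilobase of exon, Epcam was at 9.23 and 5.01 CPM in TP1 replicate 3 and TP2 replicate 2, the tumors with pancreas RNA. In the other tumors it was at 0.139 to 1.17 CPM.

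Cholesterol synthesis was the program in which the culture exceeded the tumor most evenly. Cells that run short of sterol activate the transcription factor SREBP2 (gene Srebf2), which induces the enzymes of the mevalonate pathway. Hmgcs1, the first committed enzyme (ENSMUSG00000093930, GRCm38 chr13:119690379-119708260, plus strand), was at 35.9 to 86.8 CPM (median 65) in the tumors and at 413 and 529 CPM in the cultures (log2 fold change −2.91, SE 0.21, adjusted p = 0.000109). Lss, which closes the first sterol ring, was at 22.2 to 33.1 CPM (median 27.5) against 134 and 143 CPM (log2 fold change −2.35, SE 0.11, adjusted p = 4.33e-05). In both cases every tumor lay far below both cultures, and the cultures were close to each other.

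The same held along the pathway. Idi1, Fdps, Msmo1 and Sqle had tumor medians of 18.6, 30.2, 20.4 and 38.4 CPM, against 151 and 172, 205 and 281, 156 and 173, and 199 and 236 CPM in the cultures, with log2 fold changes of −3.10, −3.06, −3.12 and −2.49. Srebf2 itself was at 78.1 to 318 CPM (median 254) against 529 and 536 CPM (log2 fold change −1.29, SE 0.32, adjusted p = 0.014). The call of Srebf2 was lost without culture replicate 1 (adjusted p = 0.0571) or 2 (adjusted p = 0.0827). Of 22 genes tested, 0 were higher and 20 lower (median log2 fold change −2.18), 18 lower without either culture and 20 to 21 without any 1 tumor. Hsd17b7 was among those not called (median 13.1 CPM against 28.4 and 28 CPM, adjusted p = 0.148). None of the 22 differed by more than 1 on the log2 scale between the 2 cultures, and the summed level was 469 to 1259 CPM (median 970) in the tumors and 3654 and 4161 CPM in the cultures.

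The promoter of Hmgcs1 is shown because it carries a sterol response element as SREBP2 binds it. The window runs from 250 bases before to 50 after the RefSeq start site, and the stretch printed is GRCm38.p6 chr13:119690190-119690246 on the plus strand, with the match to TCACNCCAC in capitals, its last base 128 bases before the start.
Hmgcs1: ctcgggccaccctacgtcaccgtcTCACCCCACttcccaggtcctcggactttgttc
This motif, searched on both strands, was found in 1 of the 14 cholesterol synthesis genes with a promoter in the RefSeq table (7.14%), in 388 of all 27025 promoters (1.44%) and in 156 of 11256 promoters of genes tested (1.39%). The match is a description of the sequence and says nothing of binding in these samples.

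**Figure D4:**
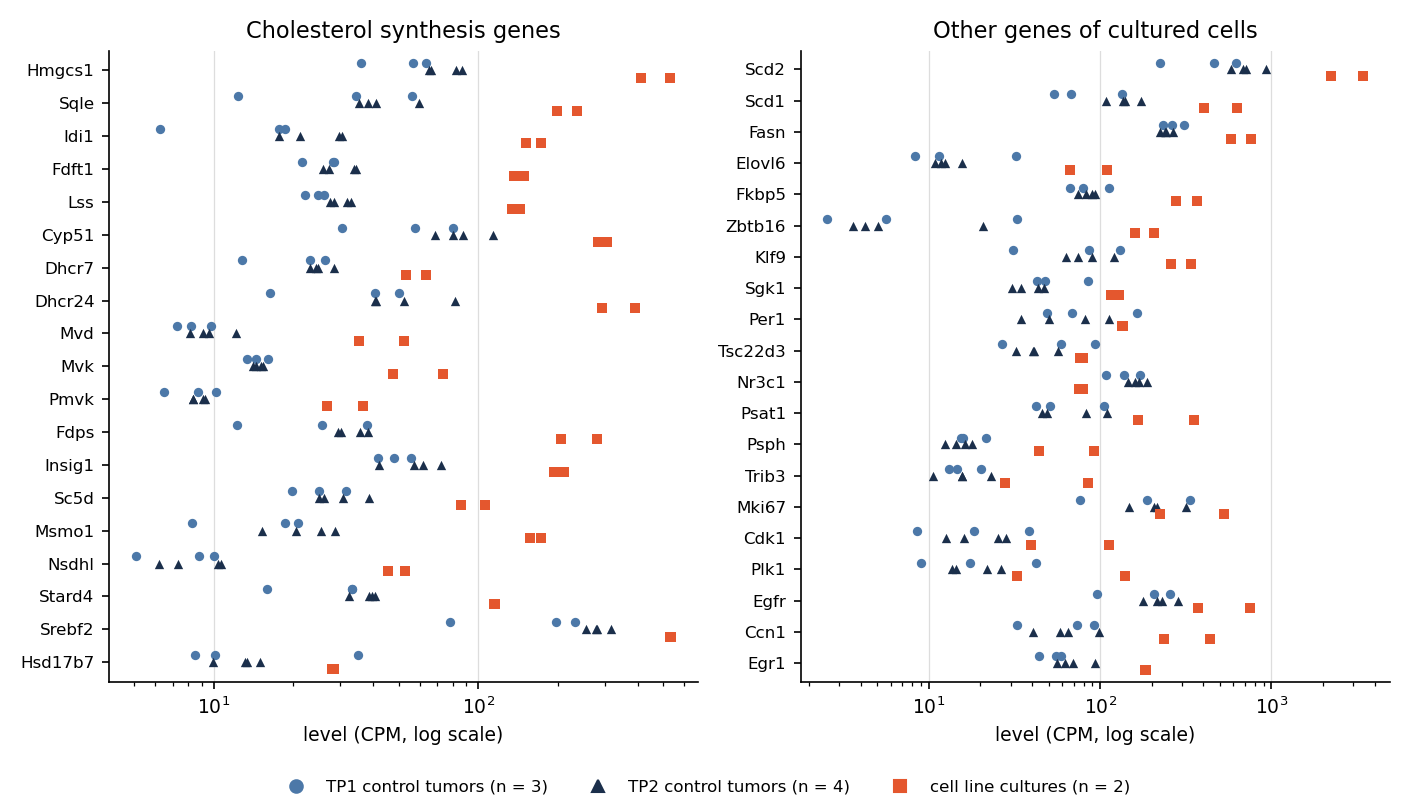
Level of 39 genes of culture-linked programs in each HGS2 library, in CPM on a log axis, with 19 cholesterol synthesis genes on the left. On the right are 20 genes of lipid and amino acid supply, the cell cycle, and hormone, growth factor and stretch responses. Among these, the receptor gene Nr3c1 is above both cultures in the tumors. The cholesterol genes of the 7 tumors lie below both cultures in almost every row, Hmgcs1 by a log2 fold change of −2.91.

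Fatty acid synthesis was lower in part. Fasn, fatty acid synthase, was at 225 to 307 CPM (median 241) against 584 and 764 CPM (log2 fold change −1.40, SE 0.17, adjusted p = 0.000743), Scd1, a desaturase, at 53.6 to 174 CPM (median 135) against 406 and 633 CPM (log2 fold change −2.25, SE 0.32, adjusted p = 0.00142), and Scd2 at 223 to 925 CPM (median 619) against 2236 and 3422 CPM (log2 fold change −2.33, SE 0.35, adjusted p = 0.00168). Cd36, which takes up fatty acids and is made by macrophages, vessels and adipocytes, was at 7.13 to 24.5 CPM (median 11.4) against 0.0321 and 0.0781 CPM (log2 fold change 7.88, SE 0.83, adjusted p = 0.000434). The groups did not overlap. Of 22 genes of fatty acid synthesis, storage and oxidation tested, 1 was higher and 4 were lower (median log2 fold change −0.27), 1 and 5 without culture replicate 1, and 1 and 4 without culture replicate 2. The 4 lower genes were Fasn, Scd1, Scd2 and Elovl6, which make and lengthen fatty acids.

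Genes of amino acid supply under ATF4, the factor that cells activate when amino acids or protein folding fail, were lower to a degree that depended on the culture. Psph, the last enzyme of serine synthesis, was at 12.4 to 21.7 CPM (median 15.8) against 44.1 and 92.1 CPM (log2 fold change −2.05, SE 0.25, adjusted p = 0.000813). Psat1 and Phgdh, the other enzymes of that pathway, had tumor medians of 51.1 and 82.9 CPM against 166 and 355 CPM and against 191 and 427 CPM (log2 fold change −1.91 and −1.64). Culture replicate 2 was the higher culture for each, and without it Psat1 and Phgdh were not called (adjusted p = 0.143 and 0.186). Of 18 genes tested, 9 were lower and 0 higher (median log2 fold change −1.36), 10 lower without culture replicate 1 and 1 without culture replicate 2.

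Cell cycle genes depended even more on the libraries. Mki67, the proliferation marker Ki-67, was at 76.3 to 333 CPM (median 206) in the tumors and at 223 and 526 CPM in the cultures, which overlapped (log2 fold change −0.84, SE 0.51, adjusted p = 0.205). Plk1, a mitotic kinase, was at 9.03 to 42.5 CPM (median 17.4) against 32.7 and 139 CPM (log2 fold change −2.03, SE 0.58, adjusted p = 0.0235), and at −0.65 without culture replicate 2 (adjusted p = 0.529). Rrm1, a subunit of the reductase that supplies deoxynucleotides, was at 80 to 140 CPM (median 97.2) against 242 and 310 CPM (log2 fold change −1.43, SE 0.18, adjusted p = 0.000931) and below both cultures in all tumors. Of 22 mitosis genes tested, 9 were lower and 0 higher, and of 24 replication genes 4 were lower and 0 higher (median log2 fold change −1.35 and −0.96). Without culture replicate 2 the lower counts were 0 and 1, without culture replicate 1 they were 13 and 10, and without TP1 replicate 1 they were 19 and 12. Without TP1 replicate 2 or TP2 replicates 1, 2, 3 or 4 they were between 2 and 6 for mitosis and between 2 and 4 for replication.

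Some genes that glucocorticoids induce were lower in the tumors, beside a culture medium with hydrocortisone. Fkbp5, a chaperone of the glucocorticoid receptor, was at 66.8 to 113 CPM (median 82.5) against 277 and 368 CPM (log2 fold change −1.91, SE 0.20, adjusted p = 0.000397), and Zbtb16 at 2.56 to 32.5 CPM (median 5.08) against 205 and 159 CPM (log2 fold change −4.09, SE 0.85, adjusted p = 0.00663). Sgk1 was at 30.7 to 85.3 CPM (median 43.3) against 128 and 115 CPM (log2 fold change −1.36, SE 0.26, adjusted p = 0.00451). All tumors lay below the cultures for these genes. Tsc22d3, which encodes GILZ and is another classical target, was at 26.8 to 93.3 CPM (median 41.2) against 76.3 and 79.1 CPM and was not called (adjusted p = 0.209). Nr3c1, the receptor itself, was at 108 to 188 CPM (median 160) against 79.1 and 74.9 CPM (log2 fold change 0.98, adjusted p = 0.00582), just under the fold limit. Of 12 targets tested, 4 were lower and 0 higher (median log2 fold change −0.79), 3 lower and 1 higher without culture replicate 1, and 6 lower without culture replicate 2. The part of the hydrocortisone was not tested.

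The medium also held EGF. Egfr, its receptor, was at 95.8 to 285 CPM (median 216) against 749 and 375 CPM (log2 fold change −1.45, SE 0.36, adjusted p = 0.0138), and at −0.87 without culture replicate 1 (adjusted p = 0.165). Dusp6, a phosphatase that MAP kinase signaling induces, was at 37.6 to 95.8 CPM (median 65.6) against 88.6 and 93 CPM (adjusted p = 0.263), and Spry4, another output, at 13 to 37.7 CPM (median 30.3) against 34.7 and 19.9 CPM (adjusted p = 0.93), with overlap in both. Of 17 genes of the receptor and its output tested, 1 was higher and 3 were lower, beside 23% and 7.21% over all genes tested. Egr1, an immediate early gene, was at 44.1 to 92.9 CPM (median 58.8) against 184 and 183 CPM (log2 fold change −1.59, SE 0.19, adjusted p = 0.000658), whereas Klf2, which blood flow induces in endothelium, was at 37.2 to 69.3 CPM (median 63.5) against 9.3 and 5.96 CPM (log2 fold change 2.90, SE 0.30, adjusted p = 0.000391). Of 14 immediate early genes, 3 were higher and 4 lower, beside 23% and 7.21% over all genes tested.

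Targets of YAP, a factor that stretched cells on stiff surfaces activate, were likewise mixed. Ccn1, a secreted matricellular protein, was at 32.7 to 98 CPM (median 64.5) against 439 and 237 CPM (log2 fold change −2.37, SE 0.39, adjusted p = 0.0027), and Amotl2, a feedback inhibitor of YAP, at 51.6 to 187 CPM (median 151) against 795 and 489 CPM (log2 fold change −2.15, SE 0.37, adjusted p = 0.00317). Nt5e, the ectoenzyme CD73, was at 10.9 to 158 CPM (median 100) against 1.19 and 0.338 CPM (log2 fold change 6.88, SE 1.21, adjusted p = 0.00331). Tumors and cultures were apart for the 3 genes. Of 13 targets tested, 3 were higher and 5 lower (median log2 fold change −0.60), 1 and 2 without culture replicate 1, and 2 and 4 without culture replicate 2.

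Genes induced by low oxygen gave little difference as a list, with calls to be read beside 23% higher and 7.21% lower over all genes tested. Vegfa was at 128 to 319 CPM (median 213) against 68.3 and 76.8 CPM (log2 fold change 1.45, SE 0.33, adjusted p = 0.00989) and Pfkfb4, a regulator of glycolysis, at 16 to 26.7 CPM (median 24.6) against 6.45 and 5.44 CPM (log2 fold change 1.92, SE 0.27, adjusted p = 0.00141). The glucose transporter Slc2a1 was at 38.7 to 110 CPM (median 69.2) against 77.4 and 91.3 CPM (adjusted p = 0.649). Vegfa and Pfkfb4 were above both cultures in all tumors, and the call of Vegfa was lost without either culture (adjusted p = 0.0651 and 0.0668). Of 19 genes tested, 3 were higher and 1 was lower (median log2 fold change 0.24), with 4 and 2 without culture replicate 1 and 1 and 0 without culture replicate 2.

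A rule on size picked the called protein-coding genes with the largest changes, with no overlap between tumors and cultures and a mean of at least 10 CPM in the higher group. The 15 higher genes were all of immune cells or of their antigen presentation, among them Ptprc, the pan-leukocyte CD45 (71.6 to 375 CPM, median 156), Laptm5 (97.6 to 311 CPM, median 183) and Dock2 (48.3 to 184 CPM, median 91.3), which had 0 counts in culture and were at least 1622-fold, 1897-fold and 949-fold higher. In all, 464 genes with at least 1 CPM in every tumor had at most 3 counts in each culture, of which 406 were protein coding and 47 were in the lists described here. Of the 464, 167 were also absent from the 60577 culture and present in each 60577 tumor, and 165 were above 3 counts in a 60577 culture.

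The 15 lower genes of that rule were of several kinds. They included mt-Co3, at 0 to 16.7 CPM in the tumors against 428 and 325 CPM, and mt-Nd3, at 0 to 5.34 CPM against 18.8 and 28.5 CPM, which every cell uses. Both were also low in the 60577 tumors. There mt-Co3 was at 0 to 85.1 CPM (median 15.5) against 485 and 740 CPM, and mt-Nd3 at 0 CPM against 45.7 and 31.9 CPM. The summed level of 13 mitochondrial messenger RNAs was 5259 to 6624 CPM in the HGS2 tumors and 5518 and 4465 CPM in the cultures. Hist2h2aa1, a histone gene, was at 1.01 to 3.7 CPM (median 1.65) against 379 and 843 CPM (log2 fold change −8.44, SE 0.40), and at 0.721 to 2.02 CPM against 785 and 741 CPM in 60577, so that it was low in the tumors of both models, as was Rmrp. Ptprq, a receptor phosphatase (ENSMUSG00000035916, GRCm38 chr10:107517049-107720051, minus strand), was at 0.0865 to 0.353 CPM (median 0.203) against 94.2 and 34 CPM (log2 fold change −8.16, SE 0.49, adjusted p = 6.37e-05). Cdh8, a cadherin of neurons, was at 0.0294 to 0.285 CPM (median 0.0577) against 49.7 and 41.5 CPM (log2 fold change −8.79, SE 0.66, adjusted p = 0.000122), and Sp8, a developmental transcription factor, at 0 to 0.433 CPM (median 0.0703) against 33.3 and 54.5 CPM (fitted log2 fold change −8.01, SE 0.86, adjusted p = 0.000464). The groups were far apart for each. Eya2, a developmental coactivator, was at 0.575 to 2.49 CPM (median 0.96) against 36.3 and 72.2 CPM, and Pcdh10, a protocadherin, at 0.0294 to 2.2 CPM (median 0.317) against 40.7 and 73.8 CPM. Their log2 fold changes were −5.52 and −6.14. Cxcl15 and Igf2 belong to the same 15 genes. Only 8 genes with at least 1 CPM in both cultures had at most 3 counts in every tumor, and 1 of these, Nt5c1b, was protein coding (median 0 CPM against 4.39 and 1.33 CPM).

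Within the tumors, TP2 was set against TP1 to see whether the time of collection changed the picture. No gene was called (0 of 16081, 0%), with 447 genes at an unadjusted p-value below 0.05 by edgeR. limma-voom also called 0, and DESeq2 called 8 (3 higher and 5 lower at TP2). Without TP1 replicate 2, edgeR called 43, of which 41 were higher at TP2. The medians of the lists ran from 2.15 for B cell genes, 1.47 for mesothelial genes and 1.22 for plasma cell genes to −0.89 for chemokines, −0.93 for interferon-stimulated genes and −1.24 for lymphatic endothelial genes on the log2 scale. TP1 replicates 1 and 3, which were low in mesothelial genes, make up most of the TP1 group, and TP2 replicate 3, which was high in B cell genes, is in the TP2 group.

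To see which of the differences were particular to HGS2, the difference of tumor and culture was compared with that of 60577, an HGSOC line from female FVB mice that was grown in FVB mice (6 control tumors and 2 cultures, in the same 2 sequencing runs). The 60577 mice were also female, 8 to 9 weeks old at injection and given vehicle. Their first dose came sooner after injection than in HGS2, so their tumors had grown for a shorter time. Host strain, cell line and time of tumor growth cannot be told apart in this comparison. Levels were scaled over all 17 libraries. Of 17055 genes tested, 1076 (6.31%) were called. The signed log2 change from culture to tumor was higher in HGS2 for 606 (3.55%) and lower for 470 (2.76%). limma-voom called 192 and 441, and scaling to total counts alone gave 433 and 505. Without 60577 culture replicate 2 the count was 429, and without HGS2 culture replicate 1 it was 605.

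**Figure D5:**
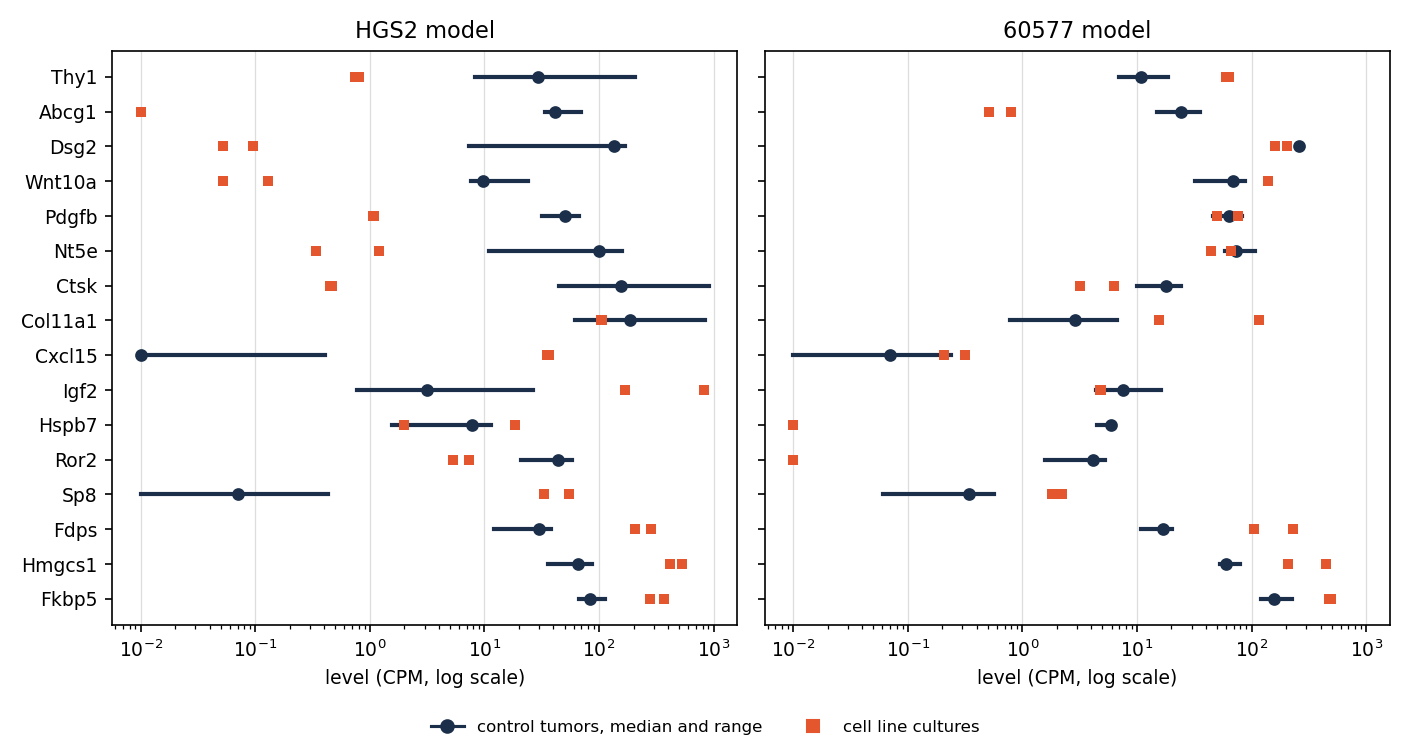
Level of 16 genes in HGS2 and 60577, in CPM on a log axis, with the median and the range of the control tumors (7 and 6) and the 2 cultures of each line. Values of 0 are drawn at 0.01 CPM. Hmgcs1 and Fkbp5 fall from culture to tumor in both models, whereas Dsg2, Pdgfb and Nt5e are near 0 to 1 CPM in the HGS2 cultures only.

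No gene of the cholesterol synthesis, ATF4 or EGF receptor lists was called between the models, whereas 1 of 12 glucocorticoid targets was lower, 2 of 22 fatty acid genes were higher, 2 of 13 YAP targets were higher and 1 lower, and 4 of 14 immediate early genes were lower, beside 3.55% higher and 2.76% lower over all genes. Hmgcs1 was at 52.5 to 79.4 CPM (median 60.1) in 60577 tumors and at 446 and 209 CPM in 60577 cultures, so the difference between the models was −0.58 (SE 0.40, adjusted p = 0.428). Fkbp5 was at 122 to 224 CPM (median 158) against 492 and 474 CPM, with a difference of −0.33 (SE 0.32, adjusted p = 0.604). Of the 22 cholesterol genes, 0 were called between the models, and their summed level was 694 to 973 CPM in 60577 tumors and 2698 and 4779 CPM in 60577 cultures. Col1a1 was at 2034 to 3856 CPM (median 2862) against 820 and 237 CPM in 60577, both far below the 12754 and 6999 CPM of the HGS2 cultures, with a difference of −1.10 (SE 0.81, adjusted p = 0.478).

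Several called genes were expressed by the 60577 culture and hardly by the HGS2 culture. Dsg2, a desmosomal cadherin, was at 7.39 to 167 CPM (median 136) in HGS2 tumors and at 0.0962 and 0.0521 CPM in HGS2 cultures, but at 247 to 282 CPM (median 258) in 60577 tumors and at 160 and 202 CPM in 60577 cultures (difference 9.98, SE 1.33, adjusted p = 0.00087). Pdgfb was at 46.1 to 82.9 CPM (median 64) in 60577 tumors and at 49.7 and 76.7 CPM in 60577 cultures (difference 5.44, SE 0.47, adjusted p = 4.35e-05). The tumor levels of Pdgfb in the 2 models overlapped, and it was the HGS2 culture that stood apart. Nt5e had the same pattern (58.6 to 107 CPM, median 72.7, against 44.5 and 65.6 CPM, difference 6.45, SE 1.07, adjusted p = 0.00329), and so had Itga6 (139 to 324 CPM, median 182, against 117 and 117 CPM, difference 3.76, SE 0.54, adjusted p = 0.00146).

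Other called genes, among them Igf2, Cxcl14 and Egr1, were higher in the HGS2 culture than in the 60577 culture. Igf2 was at 4.35 to 16.1 CPM (median 7.56) in 60577 tumors and at 4.79 and 4.85 CPM in 60577 cultures (difference −7.16, SE 1.39, adjusted p = 0.0079), and Cxcl14 at 9.74 to 25.4 CPM (median 18.8) against 6.62 and 4.85 CPM (difference −4.51, SE 0.58, adjusted p = 0.000678). The tumors of both models were thus at similar low levels of these 2 genes, with the HGS2 cultures above them. Egr1 was at 53.8 to 144 CPM (median 65.6) in 60577 tumors against 46.9 and 36.8 CPM in cultures (difference −2.47, SE 0.38, adjusted p = 0.00226). For the collagen Col11a1 the cultures of the models overlapped and the tumors were apart. It fell from 116 and 15.6 CPM in 60577 cultures to 0.785 to 6.74 CPM (median 2.9) in 60577 tumors. In HGS2 it was at 61.5 to 842 CPM (median 186) in tumors against 104 and 107 CPM in cultures (difference 5.39, SE 1.31, adjusted p = 0.0246). Without 60577 culture replicate 1 this difference was 3.32 (adjusted p = 0.165), and the calls of Igf2 were lost without either 60577 culture (adjusted p = 0.0639 and 0.0757).

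Some genes induced by low oxygen were also called between the models. Bnip3, which marks mitochondria for removal, was at 30.5 to 64.2 CPM (median 50.2) in HGS2 tumors against 51.8 and 29.5 CPM in cultures, and at 37.6 to 196 CPM (median 44.4) in 60577 tumors against 4.62 and 6.82 CPM in cultures (difference −3.22, SE 0.72, adjusted p = 0.0166). P4ha1, a collagen prolyl hydroxylase, was at 140 to 268 CPM (median 202) against 314 and 272 CPM in HGS2 and at 121 to 288 CPM (median 142) against 72.1 and 37.8 CPM in 60577 (difference −2.07, SE 0.44, adjusted p = 0.0131). The tumors of the models overlapped for both genes, and the cultures did not. Of 19 genes, 4 were called lower (median difference −1.26) and 0 higher, beside 2.76% and 3.55% over all genes. The call of Bnip3 was lost without 60577 culture replicate 1 or 2 (adjusted p = 0.106 and 0.0756) or HGS2 culture replicate 1 (0.0759), and that of P4ha1 without 60577 culture replicate 2 (0.105) or HGS2 culture replicate 1 (0.0538).

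Among host-cell genes few were called between the models, but genes with 0 counts in all 4 cultures could not be called. For C1qa, C1qb and Adgre1, for instance, the SE of the difference was 3538.42, 3765.28 and 3653.86. The few calls therefore do not show that the tumors of the models were alike in host cells. Csf1r was at 130 to 291 CPM (median 238) in 60577 tumors and at 0.428 and 1.37 CPM in 60577 cultures (difference 3.38, SE 0.74, adjusted p = 0.015), and Cd74 at 432 to 1951 CPM (median 1494) against 3.96 and 5.87 CPM (difference 3.65, SE 1.01, adjusted p = 0.0445). In the HGS2 cultures Csf1r had 9 and 3 counts and Cd74 17 and 8. Both calls were lost with limma-voom (adjusted p = 0.541 and 0.582) and without HGS2 culture replicate 2 (adjusted p = 0.0802 and 0.162). That of Csf1r was also lost without 60577 culture replicate 2 (adjusted p = 0.151), and that of Cd74 without each of the other cultures (adjusted p = 0.0792 to 0.151) and without TP1 replicates 1 or 2 or TP2 replicates 1, 3 or 4 of HGS2, or TP1 replicates 1, 2 or 3 or TP2 replicate 3 of 60577 (adjusted p = 0.0533 to 0.0683). Of 18 macrophage genes tested 1 was called higher, and of 16 T cell genes 1, beside 3.55% over all genes. The summed macrophage level was 1606 to 3261 CPM in HGS2 tumors and 694 to 1472 CPM in 60577 tumors, and the summed plasma cell level 348 to 4573 CPM and 11.3 to 770 CPM, with host strain and model mixed in both.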

How the data were processed

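RNA-seq libraries were made from total RNA of frozen omental tumors and of cell lines after removal of ribosomal RNA, for which the labels and the methods name different kits, and sequenced as pairs of 150 bases. Per the labels, reads were trimmed with Trim Galore 0.6.5, mapped to GRCm38 (mm10) with STAR 2.7.0f and quantified with RSEM. The authors deposited expected counts, without normalization, for 55487 genes in 1 table for tumors and 1 for cell lines. Sequencing was strand-specific per the methods. The setting for strand in the counting is not given in the sources used here, so genes that overlap on opposite strands may share reads. GENCODE M21 gave symbols, classes and positions for 55227 genes.

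Expected counts were rounded. A gene entered the test where 2 or more of the 9 libraries reached 1 CPM. Libraries were scaled by TMM, and the two-sided quasi-likelihood test of edgeR 4.0.16 was run in R 4.3.3 with p-values adjusted after Benjamini and Hochberg, with TP1 tumors, TP2 tumors and cultures as 3 groups and the mean of TP1 and TP2 against culture as the main contrast. The comparison with 60577 fitted 17 libraries. A gene was called where its adjusted p was under 0.05 and its log2 fold change lay beyond 1 in either direction. A gene without counts in culture is given as a bound against 3 counts per library, and 1 to 3 counts as a ratio with an exact 95% Poisson interval, which covers counting error only. In counts simulated for tumors against culture (15659 genes), 52% of the 200 genes given a log2 fold change of 2 were recovered and 3.7% of the calls were not changed genes. Replicates differed by more than counting error (chi-square per degree of freedom of at least 10.0).

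The libraries, the 48 lists of 715 genes and the tests were chosen with earlier results of these data known. Genes are named from the lists and, for each comparison, as the 15 protein-coding genes with the largest and the 15 with the smallest log2 fold change among called genes without overlap and with at least 10 CPM in the higher group, and as the 10 most abundant genes absent from culture or from tumors. Alternatives were other scalings, filters and tests (limma-voom with limma 3.58.1, DESeq2 1.42.0), an offset for length and GC content, a replicate block and leaving out each library. A fit without the 2 tumors that hold pancreas RNA was chosen after seeing the data. Some members of the lists and of the named genes are counted but not reported singly here. The promoter is from RefSeq. Figures were drawn with matplotlib 3.10.9.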

Additional observations from a re-analysis of the deposited data

Results flagged for a closer look

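Within the 4 TP2 control tumors, 48 list levels were checked for a library far from the others (Dixon's test at the 95% level), a check that chance passes in about 5% of groups. TP2 replicate 2, which holds pancreas RNA, was lowest for macrophage genes (1606 CPM), MHC class I genes (1724 CPM), MHC class II genes (677 CPM) and matrix proteases and inhibitors (4413 CPM), and highest for ATF4 and amino acid supply genes (1511 CPM) and short structural RNAs (311728 CPM). TP2 replicate 3 was highest for immediate early genes (914 CPM). The part of the pancreas RNA in these levels was not tested.

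The difference between tumor and culture differed between HGS2 and 60577 for 32 of the genes tested and named here, by the test of that difference itself (edgeR, adjusted p below 0.05). Among ligands and receptors these were Igf2 (−7.16), Cxcl15 (−8.19), Cxcl14 (−4.51), Fgf2 (−3.14), Pdgfb (5.44), Wnt10a (8.04), Csf1r (3.38) and Ror2 (−7.15). Among adhesion and surface genes they were Dsg2 (9.98), Thy1 (8.42), Nt5e (6.45), Itga6 (3.76), Itga3 (−1.39), Cd36 (5.23), Cd74 (3.65) and Ptprq (−3.49). Among matrix and protease genes they were Lama4 (2.85), Col11a1 (5.39), Col18a1 (−2.37), Thbs1 (−3.17), Ctsk (6.89) and Mmp19 (−2.14). Among genes of the response to low oxygen they were Bnip3 (−3.22), P4ha1 (−2.07), Aldoa (−1.54) and Pdk1 (−1.51).

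The others were Abcg1 (8.42), Lcp1 (7.72), Egr1 (−2.47), Sp8 (−5.32), Cebpd (−1.80) and Hspb7 (−10.98). The values are log2 differences of signed changes. They are positive where the change from culture to tumor was more upward or less downward in HGS2. The values of Hspb7 and Ror2 are fitted against 60577 cultures with 0 counts. That of Abcg1 is fitted against HGS2 cultures with 0 counts, and that of Lcp1 against HGS2 cultures with 0 and 1 counts. None of these values is a bound. Of the 32 genes, 15 were called without each single library and 17 lost the call without 1 of the 4 cultures, while limma-voom did not call 20. Abcg1, a cholesterol exporter, was at 33.8 to 70 CPM (median 41.1) in HGS2 tumors with 0 counts in the HGS2 cultures (at least 427-fold higher), and at 14.8 to 35.3 CPM in 60577 tumors against 0.513 and 0.789 CPM. Wnt10a was at 7.64 to 23.8 CPM (median 9.8) against 0.128 and 0.0521 CPM in HGS2, but at 32.1 to 87.7 CPM (median 69.4) against 138 and 140 CPM in 60577. Thy1, a surface protein of fibroblasts and lymphocytes, was at 8.31 to 206 CPM (median 29.4) against 0.738 and 0.807 CPM in HGS2 and at 7 to 18.6 CPM (median 10.8) against 63.2 and 60.2 CPM in 60577.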

How the results depend on the processing

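The 4857 calls of tumors against culture fell to 2625 with a replicate block, 2633 with a replicate block and length and GC offset, 3233 with TP1 controls only and 3204 with the fold limit at 2. Leaving out 1 library gave 2720 (without culture replicate 2) to 5100. The replicate numbers did not pair the tumors (same-number correlations of −0.552 to 0.299), so the block is only a setting. Upper quartile scaling moved the median log2 fold change of all genes from 0.06 to 0.20. TP2 against TP1 gave 0 calls in all but 2 alternatives, 8 with DESeq2 and 43 without TP1 replicate 2, and leaving out 1 library gave 0 to 43. The 1076 calls between the models became 633 with limma-voom, 1636 with DESeq2, 658 with the replicate block and 694 with block and offset, and 429 to 1346 when 1 library was left out (658 and 429 without 60577 culture replicates 1 and 2, 605 without HGS2 culture replicate 1). The 333 list members called in tumors against culture became 208 with limma-voom, 192 with the replicate block, 208 with block and offset, and 186 (without culture replicate 2) to 340 when 1 library was left out. Leaving out both tumors with pancreas RNA, added after the data were seen, gave 4666, 0 and 1557 calls in the 3 comparisons.

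Signs turned for Vim (0.01 with upper quartile scaling, 0.00 with TP1 controls only, 0.10 without the tumors with pancreas RNA, and −0.44 to 0.26 when 1 library was left out), and, when 1 library was left out, for C3 (−0.05 to 1.94) and Muc16 (−3.05 to 0.01). Between the models they turned for Fdps (−0.36 to 0.79) and Zbtb16 (−0.32 to 1.02, and −0.78 without the tumors with pancreas RNA). None of these 5 differences was called as reported, and Muc16 was called without TP1 replicate 2. Over the other named genes and alternatives, 4990 values kept direction and side of the threshold, 424 lost the call and 51 gained it. The cause was not tested. Of 381 named or listed genes called in tumors against culture, 109 lost the call without culture replicate 1 and 169 without culture replicate 2, against 20 to 47 without a tumor.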

Other observations

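Transcripts of rarer immune cells were found in the tumors. Flt3, Xcr1 and Clec9a, genes of dendritic cells and their precursors, had tumor medians of 3.46, 1.36 and 1.53 CPM and 0 counts in both cultures (at least 36-fold, 14.1-fold and 15.9-fold higher). Of 10 dendritic cell genes tested, 9 were higher in the tumors, 8 without culture replicate 1 and 6 without culture replicate 2. Nkg7, of cytotoxic granules, was at 0.285 to 8.57 CPM (median 2.54) and at least 26.4-fold higher, and 5 of 7 natural killer and cytotoxic genes tested were higher, but 2 without culture replicate 1, 1 without culture replicate 2 and 0 with limma-voom. Cpa3, a protease of mast cells, was at 0.147 to 3.1 CPM (median 1.66) with 0 counts in culture. S100a8, of neutrophils, was at 0.507 to 8.54 CPM (median 1.56) and at least 16.2-fold higher. Xcr1, Nkg7, Cpa3 and S100a8 were not called without culture replicate 2 (adjusted p = 0.055, 0.0588, 0.0645 and 0.0802), and S100a8 also not without culture replicate 1 (adjusted p = 0.0538).

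Stress and iron genes changed singly. Gpx3, a secreted glutathione peroxidase that contains selenium, was at 25.3 to 138 CPM (median 87.8) against 0.673 and 0.208 CPM in the cultures (log2 fold change 7.63, SE 0.88, adjusted p = 0.000651). Steap3, a ferrireductase, was at 15.6 to 35.2 CPM (median 20) against 2.37 and 1.48 CPM (log2 fold change 3.56, SE 0.30, adjusted p = 0.000181). Both were above the cultures in all 7 tumors. Of 16 iron and selenium genes tested, 2 were higher and 1 was lower, beside 23% and 7.21% over all genes tested. Cdkn1a, the cell cycle inhibitor p21 that p53 induces, was at 11.7 to 44 CPM (median 27.1) against 4.78 and 8.49 CPM (log2 fold change 2.08, SE 0.54, adjusted p = 0.0165), and was not called without either culture (adjusted p = 0.107 and 0.0607). Of 13 p53 targets tested, 3 were higher and 1 was lower, near the 23% and 7.21% over all genes tested. Gclm, which makes glutathione and is a target of NRF2, was at 20.5 to 30.5 CPM (median 27.6) against 52.6 and 101 CPM (log2 fold change −1.54, SE 0.22, adjusted p = 0.00155), and its log2 fold change without culture replicate 2 was −0.99. Of 13 NRF2 and metallothionein genes tested, 3 were lower and 0 higher, 5 lower without culture replicate 1 and 0 without culture replicate 2.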
